A study of Mus musculus with 6 samples.

Results

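The genes described here encode the Aurora kinases (*Aurka*, *Aurkb*, *Aurkc*), the other subunits of the chromosomal passenger complex (*Incenp*, *Birc5*, *Cdca8*), 2 Polo-like kinases (*Plk1*, *Plk4*) and 2 activators of these kinases (*Tpx2*, *Bora*). They were taken by symbol from the count table. All 10 were found among its 53465 genes and all 10 passed the filter on low counts, which 11842 genes passed. RNA was sequenced from 6 pools of M II oocytes, the stage at which the egg waits for fertilization, obtained by in vitro maturation of oocytes from female Kunming (KM) mice aged 9 to 10 months. The control group had 3 pools matured without quercetin (0 μM) and the quercetin group had 3 pools matured with 10 μM quercetin, a plant flavonol. Each pool held 15 oocytes collected from 3 mice, so that no value belongs to a single oocyte or mouse, and both groups came from aged mice.

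Aurora and Polo-like kinases are serine/threonine kinases that drive entry into M phase, spindle assembly and chromosome segregation. In the chromosomal passenger complex, INCENP holds the kinase and activates it, and survivin (*Birc5*) with borealin (*Cdca8*) brings the complex to chromatin and the inner centromere, where it releases wrongly attached kinetochores. Aurora B serves in this complex in most dividing cells. Aurora C, which is close to Aurora B in sequence, serves in it in germ cells. Mouse oocytes build their spindles without centrioles, from microtubule organizing centers and with Aurora A, whose activator TPX2 is loaded onto spindle microtubules. Bora, as a cofactor of Aurora A, helps to activate Plk1, and Plk4 is the kinase known for starting centriole duplication.

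The counts on *Aurkb* and *Aurkc* can be told apart by sequence only where the paralogues differ, so their longest identical coding stretch is shown with 20 bases on each side. The 65 bases run across exons 5 and 6 of *Aurkb* (GRCm38, chr11:69048638-69048788, plus strand) and across exons 4 and 5 of *Aurkc* (chr7:6997646-7000036, plus strand). The capitals mark the 25 bases that both genes share.
Aurkb: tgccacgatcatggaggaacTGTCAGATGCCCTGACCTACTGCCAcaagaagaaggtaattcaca
Aurkc: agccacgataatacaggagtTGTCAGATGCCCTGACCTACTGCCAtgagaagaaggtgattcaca
The coding sequences of *Aurkb* and *Aurkc* were identical at 72.5% of 938 aligned bases, and their proteins, of 345 and 315 residues, at 71.5% of 309 aligned residues. No stretch of 31 bases was common to these paralogues. A read that lies within 1 of them therefore carries differences from the other. Identity to Aurora A was lower, 63.9% of residues for Aurora B and 60.2% for Aurora C, and Plk1 and Plk4 were identical at 33.8% of 468 aligned residues.

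*Aurkc* shares more sequence with annotated copies of itself than with its paralogues. Of its 1610 different words of 31 bases, 67.1% also occur in another gene and 529 occur in *Aurkc* alone. The closest copy is *Gm12463* (ENSMUSG00000080916), a processed pseudogene of 849 bases in 1 exon on chr4:44752277-44753125, minus strand, in no host gene. Over 848 aligned bases it was 99.3% identical to *Aurkc*, with 6 base differences, 1 gap and a longest run without a base difference of 704 bases. Within the aligned stretch, only reads over such positions or over the gap separate the genes. The *Aurkc* transcript with the longest coding sequence has 1154 bases and extends beyond that stretch. The 60-base window that holds the largest number of the base differences, 3, is shown. It is coding sequence in exon 7 of *Aurkc* (chr7:7002881-7002940, plus strand) and lies at chr4:44752300-44752359, minus strand, in *Gm12463*. The capitals mark the differing bases.
Aurkc: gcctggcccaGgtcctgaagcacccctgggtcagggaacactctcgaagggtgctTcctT
Gm12463: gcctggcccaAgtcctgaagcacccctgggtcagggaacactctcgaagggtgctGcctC
The other 9 copies with at least 50 shared words are pseudogenes on chromosome 7, the chromosome of *Aurkc*. *Gm12463* and these copies are not members of the list and were chosen after their values had been seen. How reads that match several genes were counted is not given in the sources used here.

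Promoters were available for 6 of the 10 genes in the RefSeq table (GRCm38.p6), each with 250 bases before and 50 after the start of the gene. Promoters of genes expressed late in the cell cycle often carry a CHR element and CCAAT boxes. The letters TTTGAA or TTTAAA of a CHR element were found on either strand in 5 of the 6 promoters, those of *Aurka*, *Birc5*, *Cdca8*, *Plk1* and *Plk4*, and in 27.6% of all 32851 promoters of that length. The letters CCAAT were found in 4 of the 6, those of *Aurka*, *Aurkc*, *Cdca8* and *Plk1*, against 37.4% of all promoters. In *Cdca8* 1 CHR match and 1 CCAAT match overlap. The promoter of *Aurkc* is the only one of the 6 without a CHR match, and it is shown beside that of *Plk1*, which has 3. *Plk1* lies at chr7:122159185-122159484 and *Aurkc* at chr7:6995135-6995434, both on the plus strand, and the capitals mark the matches.
Plk1: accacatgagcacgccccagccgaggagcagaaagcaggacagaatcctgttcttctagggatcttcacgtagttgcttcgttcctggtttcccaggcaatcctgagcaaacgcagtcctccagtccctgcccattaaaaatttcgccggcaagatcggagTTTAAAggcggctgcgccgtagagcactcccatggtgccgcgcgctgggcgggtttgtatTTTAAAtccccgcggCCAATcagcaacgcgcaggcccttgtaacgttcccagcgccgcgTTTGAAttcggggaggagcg
Aurkc: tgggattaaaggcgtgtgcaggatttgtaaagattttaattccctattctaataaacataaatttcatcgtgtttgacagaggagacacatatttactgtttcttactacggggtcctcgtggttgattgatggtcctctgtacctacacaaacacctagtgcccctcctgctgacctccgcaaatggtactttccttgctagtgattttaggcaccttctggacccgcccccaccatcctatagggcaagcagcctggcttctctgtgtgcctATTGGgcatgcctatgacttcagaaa
A match describes the letters only, and binding of a factor was not measured.

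The libraries were close to each other in depth. Total counts ran from 7880467 to 9938743 per pool, and 3 counts, taken as the floor of detection, corresponded to 0.329 to 0.376 CPM (counts scaled to a common library size, with TMM factors). These floors, and the exact Clopper-Pearson intervals on shares of counts given below, cover counting error only. The intervals on fold changes come from edgeR's quasi-likelihood fit, which also takes in the spread between pools. The 12 oocyte markers had a summed level of 24214 to 29453 CPM, and 11 of them were well above the floor in every pool, while *Figla* had 2 to 12 counts and did not pass the filter. Within this sum, *Zp1* (165 to 538 CPM), *Zp2* (131 to 1560 CPM) and *Zp3* (209 to 742 CPM) varied widely between pools and were lowest in pool 1 of each group. Of 12 cumulus cell markers, *Amh*, *Amhr2*, *Foxl2* and *Ptx3* were at 0 counts in every pool, and the whole list summed to 62.8 to 77.6 CPM in control and 79.5 to 85.3 CPM in quercetin pools, without overlap of the groups and most of it *Cyp19a1* at 486 to 692 counts. *Tnfaip6* (2, 8 and 4 counts) and *Lhcgr* (2, 4 and 2 counts) were counted in quercetin pools only. The means of *Fshr* (1.33 CPM in control, 1.02 CPM in quercetin) and *Ptgs2* (2.09 and 1.31 CPM) were lower with quercetin. The summed level of *Mki67*, *Top2a* and *Ccna2*, markers of proliferation, was 379 to 416 CPM in control and 331 to 366 CPM in quercetin pools. The groups overlapped for each of these 3 genes, and most of the sum was *Ccna2* (219 to 323 CPM). The part of either list in the results below was not tested. On the main axis of variation between pools, which held 32.4% of the variance, quercetin pools 1 and 2 (scores -37.9 and -30.9) stood apart from quercetin pool 3 (30.8) and from the control pools (-3.34, 31.3 and 10.1), so results that rest on these pools are also given with pool 3 left out. In pools of whole oocytes, less RNA of a gene per oocyte and fewer oocytes that hold it cannot be told apart.

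Levels between genes were compared per kilobase of exon (CPM per kb). Over all 6 pools, *Cdca8* (mean 113 CPM per kb, pools 87.5 to 139), *Aurkc* (109, 93.4 to 123) and *Tpx2* (106, 91.6 to 129) were the most abundant of the 10 genes. *Cdca8* was above *Aurkc* in 3 of 6 pools and *Aurkc* above *Tpx2* in 3 of 6, and the ranges of these genes overlapped. *Aurkc* was above *Tpx2* in the 3 control pools (107 against 95.4, 94.9 against 93.7 and 116 against 91.6 CPM per kb) and below it in the 3 quercetin pools (117 against 121, 123 against 129 and 93.4 against 108 CPM per kb). This comparison was made after the values had been seen, was not tested and depends on the length used, as given below. *Aurka* followed at 69.7 CPM per kb and *Birc5* at 62.8 CPM per kb, with overlapping ranges and *Aurka* higher in 4 of 6 pools. *Plk1* at 47.4 CPM per kb and *Plk4* at 33.0 CPM per kb also overlapped in range, although *Plk1* was higher in all 6 pools. *Bora* (11.2 CPM per kb), *Incenp* (6.55 CPM per kb) and *Aurkb* (2.81 CPM per kb) were the lowest, each below the gene before it in every pool with no overlap of ranges. Among all 11842 tested genes, *Aurkc*, *Cdca8* and *Tpx2* stood at percentiles 95.4, 95.5 and 95.3 of the level per kb, *Incenp* at 63.5 and *Aurkb* at 46.5.

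The order depends on the length by which counts are divided. The union of all annotated exons of *Cdca8* is 5177 bases and that of *Birc5* is 3402 bases, against 1264 and 947 bases for the transcript with the longest coding sequence of each gene. With the coding transcript, a choice added after the data had been seen, *Cdca8* stood at 465 CPM per kb and *Birc5* at 226 CPM per kb, ahead of *Aurkc* at 143 CPM per kb and *Tpx2* at 114 CPM per kb. On this scale *Aurkc* was above *Tpx2* in all 6 pools, so their order did not switch between the groups. *Plk4*, at 65.1 CPM per kb, then stood above *Plk1* at 47.4 CPM per kb, higher in all 6 pools. *Bora*, *Incenp* and *Aurkb* remained the 3 lowest in the same order on both scales, at 21.2, 10.7 and 4.25 CPM per kb by coding transcript.

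**Figure D1:**
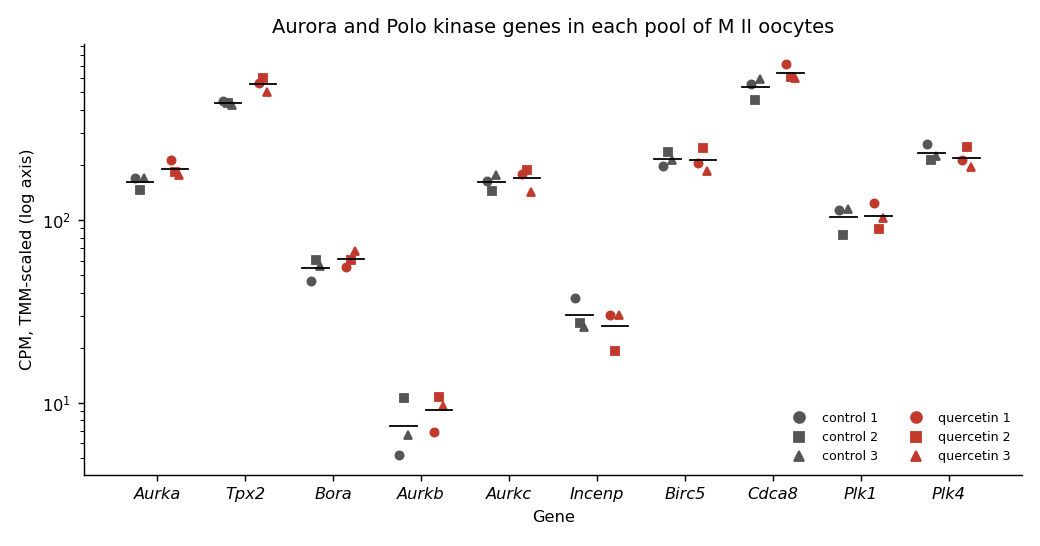
Level of each of the 10 genes in each pool, as CPM on a log axis, with control pools in grey, quercetin pools in red, a marker shape for each replicate number and a black line for the mean of 3 pools. The groups overlap for every gene except *Aurka*, *Tpx2* and *Cdca8*, and *Aurkb* lies lowest at 5.16 to 10.8 CPM.

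None of the 10 genes met the study's criteria for a changed gene, an adjusted p under 0.05 with a fold change over 2. The spindle assembly factor *Tpx2* was 1.27-fold higher with quercetin and was the only member at an unadjusted p under 0.05, and *Aurka* and *Cdca8* were the others whose 3 quercetin pools all lay above the 3 control pools. The remaining 7 genes overlapped between the groups. The groups were compared with the quasi-likelihood test of edgeR, in which 0 of all 11842 genes met both criteria (0%), 477 had an unadjusted p under 0.05 and the smallest Benjamini-Hochberg adjusted p was 0.0730. DESeq2 passed 12 genes by both criteria, and 0 of the 10 members passed in any tool run. At an unadjusted p under 0.05, 4.03% of all genes were called, 2.14% higher and 1.89% lower, beside 1 of 10 members higher and 0 lower. All 3 quercetin pools exceeded all 3 control pools in 5.42% of all genes and were below them in 5.17%, beside 3 and 0 of the 10 members. The median log2 fold change of the members was 0.12 (7 above 0 and 3 below) and that of all tested genes -0.03.

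*Aurka* (ENSMUSG00000027496, chr2:172356190-172370535, minus strand) encodes Aurora A, the spindle pole kinase. It had 169, 147 and 169 CPM in control pools 1 to 3 and 214, 183 and 177 CPM in quercetin pools 1 to 3. All quercetin pools lay above all control pools, by a small gap between the highest control and the lowest quercetin pool. The means were 162 ± 12.8 CPM in control and 191 ± 20.3 CPM in quercetin (SD, n = 3), with a log2 fold change of 0.24 (SE 0.14, 95% interval -0.08 to 0.57) with an adjusted p of 0.988 in edgeR (quasi-likelihood fit, Benjamini-Hochberg adjusted).

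*Tpx2* (ENSMUSG00000027469, chr2:152847964-152895321, plus strand), whose product activates Aurora A on microtubules, had 446, 438 and 428 CPM in control and 564, 603 and 504 CPM in quercetin pools. The control pools lay closer together than the quercetin pools, and the lowest quercetin pool was above the highest control pool. The means were 438 ± 9.00 CPM and 557 ± 49.9 CPM (SD, n = 3), with a log2 fold change of 0.35 (SE 0.13, 95% interval 0.05 to 0.64). The unadjusted p of edgeR's quasi-likelihood test was 0.0257, the 235th smallest of 11842, and the Benjamini-Hochberg adjusted p was 0.988. The two-sided exact permutation test gave p = 0.1, the smallest that 3 pools against 3 allow. The call at an unadjusted p under 0.05 remained without quercetin pool 3 but was lost when any other pool was left out, with edgeR's likelihood ratio test and with the replicate number as a block. The number of members called was 0 in each of these.

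*Bora* (ENSMUSG00000022070, chr14:99046222-99074540, plus strand), a cofactor of Aurora A in the activation of Plk1, had 46.7, 60.1 and 56.3 CPM in control and 55.1, 60.3 and 68.0 CPM in quercetin pools. The groups overlapped. The log2 fold change was 0.17 (SE 0.17, 95% interval -0.22 to 0.56).

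Among the subunits of the chromosomal passenger complex, the levels per kb differed widely while no fold change passed the test. The scaffold *Incenp* (ENSMUSG00000024660, chr19:9872296-9899551, minus strand) had 37.4, 27.3 and 26.0 CPM in control and 30.1, 19.2 and 30.1 CPM in quercetin pools, with overlapping groups and a log2 fold change of -0.19 (SE 0.25) that was -0.0042 without quercetin pool 2 and -0.0080 without control pool 1. *Birc5* (ENSMUSG00000017716, chr11:117849251-117855743, plus strand), which encodes survivin, had 197, 235 and 213 CPM in control and 206, 247 and 184 CPM in quercetin pools. Its means of 215 ± 18.7 CPM and 213 ± 31.8 CPM (SD, n = 3) gave a log2 fold change of -0.02 (SE 0.16, 95% interval -0.37 to 0.34). Its sign turned with DESeq2's size factors, to 0.000774, and stayed below 0 by library size only (-0.11), so no direction is given.

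*Cdca8* (ENSMUSG00000028873, chr4:124918465-124939311, minus strand), which encodes borealin, had 556, 453 and 591 CPM in control and 719, 608 and 599 CPM in quercetin pools. The groups did not overlap, with 599 against 591 CPM at the boundary. The means were 533 ± 71.4 CPM and 642 ± 66.8 CPM (SD, n = 3), with a log2 fold change of 0.27 (SE 0.15, 95% interval -0.08 to 0.61) with an adjusted p of 0.988 in edgeR (quasi-likelihood fit, Benjamini-Hochberg adjusted). A stretch of 4.48% of its exon length lies under the gene *9930104L06Rik* on the other strand, and strand use in counting is not given in the sources used here.

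*Aurkb* (ENSMUSG00000020897, chr11:69045647-69051664, plus strand) had 46, 88 and 59 counts in control and 55, 98 and 82 counts in quercetin pools. These were 7.46 ± 2.80 CPM and 9.10 ± 1.99 CPM (SD, n = 3), and the groups overlapped. Its log2 fold change of 0.29 had the widest interval of the 10 genes, -0.44 to 1.02 (SE 0.32), and it was the only member whose interval reached a fold change of 2. It was 0.08 without control pool 1, 0.15 without quercetin pool 2, 0.45 without quercetin pool 1 and 0.63 without control pool 2. *Aurkc* (ENSMUSG00000070837, chr7:6995300-7003091, plus strand) had 1451, 1202 and 1574 counts in control and 1427, 1710 and 1209 counts in quercetin pools. The means of 161 ± 16.3 CPM and 170 ± 24.0 CPM (SD, n = 3) gave a log2 fold change of 0.07 (SE 0.16, 95% interval -0.29 to 0.43), and scaling by library size only turned its sign to -0.02.

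**Figure D2:**
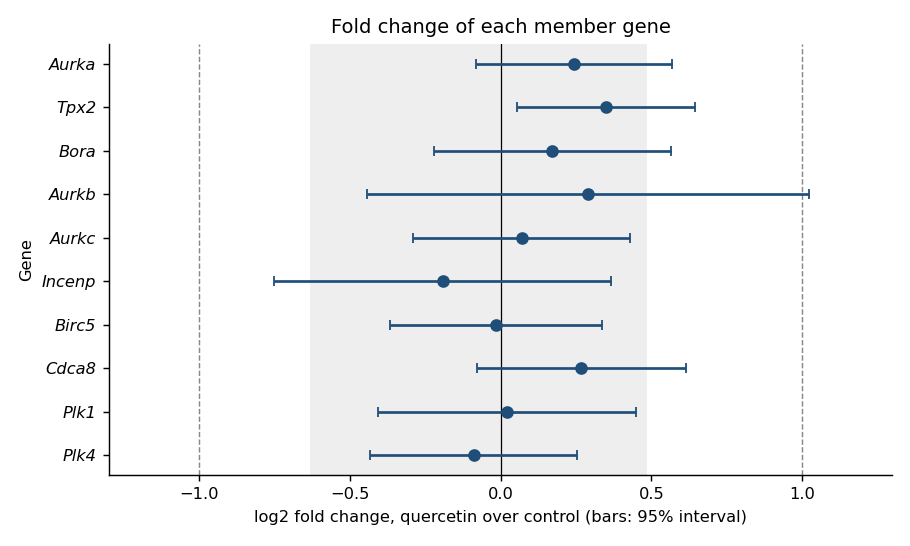
Log2 fold change of each of the 10 genes, quercetin over control, with its 95% interval from edgeR's quasi-likelihood fit. The grey band spans the 5th to 95th percentile of all 11842 tested genes (-0.63 to 0.48), the dashed lines mark a fold of 2, and the interval of *Tpx2* (0.05 to 0.64) is the only one that does not include 0.

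*Aurkc* exceeded *Aurkb* in every pool. Per base of exon, and with 0.5 added to each count, *Aurkc* was 60.4, 26.3 and 51.2 times *Aurkb* in control pools 1 to 3 and 49.8, 33.6 and 28.4 times *Aurkb* in quercetin pools 1 to 3. The 3 quercetin values lay within the range of the control values. On the log2 scale the ratio was 5.44 ± 0.64 in control and 5.18 ± 0.42 in quercetin (SD, n = 3), a difference of -0.26 with p = 0.7 in the two-sided exact permutation test (0.8 after Benjamini-Hochberg adjustment over 4 ratios). By the coding transcript in place of all exons the ratio ran from 23.0 to 52.8, with control pool 2 lowest and control pool 1 highest on both scales.

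In plain read counts, *Aurkc* made up 96.9% (95% exact Clopper-Pearson interval 95.9 to 97.7), 93.2% (91.7 to 94.5) and 96.4% (95.4 to 97.2) of the counts on *Aurkb* and *Aurkc* together in control pools. In quercetin pools the shares were 96.3% (95.2 to 97.2), 94.6% (93.4 to 95.6) and 93.6% (92.2 to 94.9). The highest and lowest *Aurkb* counts of each group (88 and 46, 98 and 55) differed by a larger factor than those of *Aurkc*.

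The reads assigned to copies of *Aurkc* outnumbered those assigned to *Aurkc* itself. *Gm12463* alone had 2528, 1796 and 2609 counts in control and 2540, 2508 and 2198 counts in quercetin pools. This was 1.74, 1.49 and 1.66 times the *Aurkc* count in control and 1.78, 1.47 and 1.82 times in quercetin pools, a log2 difference of 0.05 between the groups (p = 0.6, two-sided exact permutation test). Its log2 fold change was 0.10 (SE 0.16), with an adjusted p of 0.988 in edgeR (quasi-likelihood fit, Benjamini-Hochberg adjusted). Per kb of exon it stood at 323 CPM, above all 10 members on that scale. Next came *Gm7789* at 353 to 522 counts and *Gm45598* at 191 to 328 counts per pool.

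The 10 copies together held 65.9% to 70.1% of the counts on *Aurkc* and its copies. Where the copies were added to *Aurkc*, the count ratio to *Aurkb* was 102, 42.6 and 87.8 in control and 86.0, 51.1 and 49.3 in quercetin pools. For *Aurkc* alone it was 31.5, 13.7 and 26.7 in control and 25.9, 17.4 and 14.7 in quercetin pools. With all 10 copies added, the difference between the groups was -0.27 on the log2 scale (p = 0.7, exact permutation test). With *Gm12463* alone added, it was -0.23 (p = 0.9, exact permutation test). Which of these reads come from *Aurkc* transcripts was not tested. The 529 words of 31 bases found in *Aurkc* alone can be counted only from reads, which were not used here.

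**Figure D3:**
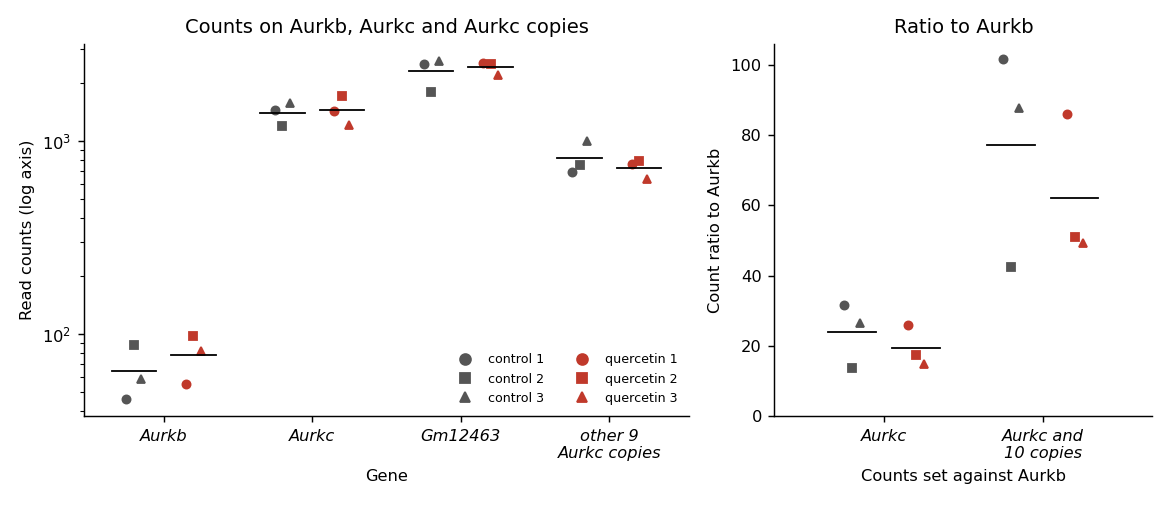
Left, read counts on *Aurkb*, *Aurkc*, *Gm12463* and the other 9 copies of *Aurkc* in each pool, on a log axis. Right, the count ratio to *Aurkb* in each pool for *Aurkc* alone (13.7 to 31.5) and for *Aurkc* with its 10 copies (42.6 to 102), with black lines for the mean of 3 pools. The groups overlap in every column.

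The groups overlapped in the other 3 ratios between partners. Per base of exon, *Aurkc* was 1.60, 1.64 and 1.74 times *Aurka* in control and 1.39, 1.71 and 1.34 times *Aurka* in quercetin pools, a log2 difference of -0.18 (p = 0.3, two-sided exact permutation test). With the 10 copies added to *Aurkc*, an alternative added after the data had been seen, the count ratio to *Aurka* was 3.10, 3.07 and 3.45 in control and 2.76, 3.01 and 2.70 in quercetin pools. All quercetin pools were then below all control pools, with a log2 difference of -0.18 and p = 0.1, the smallest value the exact permutation test allows. With *Gm12463* alone added, the groups overlapped, with a log2 difference of -0.15 (p = 0.2, exact permutation test). *Tpx2* was 1.43, 1.62 and 1.37 times its partner *Aurka* in control and 1.42, 1.79 and 1.54 times in quercetin pools, a log2 difference of 0.10 (p = 0.6, exact permutation test). *Bora* was 0.176, 0.311 and 0.210 times *Plk1* in control and 0.191, 0.289 and 0.283 times in quercetin pools, a log2 difference of 0.15 (p = 0.8, exact permutation test). The adjusted p was 0.8 for each of the 4 ratios. Within the passenger complex, *Cdca8* was 12.4 to 26.4 times *Incenp* and *Birc5* 6.71 to 16.3 times *Incenp* per base of exon.

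*Plk1* (ENSMUSG00000030867, chr7:122159439-122169873, plus strand), the Polo kinase of centromeres, spindle poles and cytokinesis, had 113, 82.6 and 114 CPM in control and 123, 89.1 and 103 CPM in quercetin pools. In each group the pool numbered 2 was lowest, and the groups overlapped. The means of 103 ± 18.1 CPM and 105 ± 17.2 CPM (SD, n = 3) gave a log2 fold change of 0.02 (SE 0.19, 95% interval -0.41 to 0.45), which turned to -0.06 when scaled by library size only. Of its words of 31 bases, 18.7% also occur in other genes, chiefly the pseudogene *Plk-ps1* and *Gm44985*, which lies over 7.09% of the exon length on the other strand.

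*Plk4* (ENSMUSG00000025758, chr3:40800019-40816883, plus strand) had 261, 214 and 225 CPM in control and 214, 250 and 195 CPM in quercetin pools. The groups overlapped, and the means of 233 ± 24.2 CPM and 219 ± 28.0 CPM (SD, n = 3) gave a log2 fold change of -0.09 (SE 0.15, 95% interval -0.43 to 0.26). The Polo paralogues were scarce. *Plk2* had 45, 30 and 37 counts in control and 54, 69 and 59 counts in quercetin pools. *Plk3* had 13, 8 and 2 counts in control and 10, 2 and 2 counts in quercetin pools, and *Plk5* had 3 counts in quercetin pool 1 and 0 in all others, so neither was tested. *Plk2* was 1.66-fold higher with quercetin, with no overlap of the groups (log2 fold change 0.73, SE 0.26, unadjusted p = 0.0201 and adjusted p = 0.988 in edgeR (quasi-likelihood fit, Benjamini-Hochberg adjusted)).

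Within groups, 8 of the 10 genes varied less between pools than the median gene, and *Incenp* and *Aurkb* varied more. The SD of log2 CPM within groups stood at percentile 2.58 of all tested genes for *Tpx2* and 7.92 for *Aurka*, and between 14.0 and 18.4 for *Plk4*, *Bora*, *Birc5*, *Cdca8* and *Aurkc*. *Plk1* stood at 35.2, and the genes with the fewest counts, *Incenp* and *Aurkb*, at 52.0 and 67.6. Well expressed genes have lower counting error, so these percentiles are not independent of level. Over the 6 pools, the log2 CPM of *Aurka* and *Cdca8* had the highest Pearson r of all pairs of members, 0.97, followed by *Aurkb* and *Bora* at 0.85, and *Aurkb* and *Plk1* had the lowest, -0.83. These are descriptions over 6 pools that share depth and scaling, with no test.

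Among 4608 genes with a mean of at least 20 CPM, the 5 whose log2 CPM followed *Aurkc* most closely over the 6 pools were *Pop7* (Pearson r 0.99), *Zfp560* (0.98), *Ramac* (0.98), *Ccnb2* (0.98) and *Acsl3* (0.98). *Ccnb2* encodes cyclin B2, a partner of the M-phase kinase Cdk1, *Ramac* a cofactor of mRNA cap methylation and *Acsl3* an acyl-CoA synthetase. Spearman's rho ran from 0.89 for *Ccnb2* to 1 for *Pop7*. Without the pools farthest from the median of *Aurkc*, quercetin pool 3 and control pool 2, r remained between 0.85 (*Acsl3*) and 1.00 (*Ramac*). With 6 pools and this many genes, high values are found for many patterns, and no test was run.

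The wider pathway was described by a list of 69 genes in 8 roles, of which 61 were tested. At an unadjusted p under 0.05 by edgeR's quasi-likelihood test, 7 of the 61 were higher with quercetin and 0 lower, where 2.14% and 1.89% of all genes were, and 0 of the 61 passed after adjustment (smallest adjusted p 0.988, Benjamini-Hochberg). The median log2 fold change was 0.06, with 35 genes above 0 and 26 below. In 12 of the 61 all 3 quercetin pools exceeded all 3 control pools and in 0 they were all below, where 5.42% and 5.17% of all genes were. The number at an unadjusted p under 0.05 was 2 without control pool 2, 4 without quercetin pool 1 and 3 without quercetin pool 2, all higher, where 1.98%, 3.05% and 2.64% of all genes were called. Without quercetin pool 3 it was 19 of 62 tested, 10 higher and 9 lower, where 12.8% of all genes were called, 4.63% higher and 8.13% lower.

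The higher genes came from 6 of the 8 roles. Those in protein turnover had the largest fold changes. *Usp13*, which encodes a deubiquitinase, had 96, 82 and 141 counts in control and 180, 203 and 183 counts in quercetin pools, which gave a log2 fold change of 0.86 (SE 0.24, unadjusted p = 0.00524 by edgeR's quasi-likelihood test). *Klhl22*, which encodes the adaptor by which a cullin ligase removes Plk1 from kinetochores, had 21, 19 and 15 counts in control and 47, 26 and 36 counts in quercetin pools. Its fold of 2.04 rested on few counts (log2 fold change 1.03, SE 0.36, unadjusted p = 0.0200 by edgeR's quasi-likelihood test).

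*Cenpu*, whose product docks Plk1 at kinetochores, had 1113, 906 and 1172 counts in control and 1366, 1507 and 1310 counts in quercetin pools, which gave a log2 fold change of 0.42 (SE 0.14, unadjusted p = 0.0147 by edgeR's quasi-likelihood test). *Nedd1*, which encodes the factor that brings gamma-tubulin to the spindle, had 3665, 3084 and 3648 counts in control and 3957, 5139 and 4144 counts in quercetin pools, which gave a log2 fold change of 0.38 (SE 0.13, unadjusted p = 0.0193 by the same edgeR test). In both genes every quercetin pool lay above every control pool. *Sgo1*, a shugoshin of the centromere, at 0.39 (SE 0.16) and *Ppp6c*, the catalytic subunit of the phosphatase that acts on Aurora A, at 0.53 (SE 0.21) were the others called, beside *Plk2*.

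**Figure D4:**
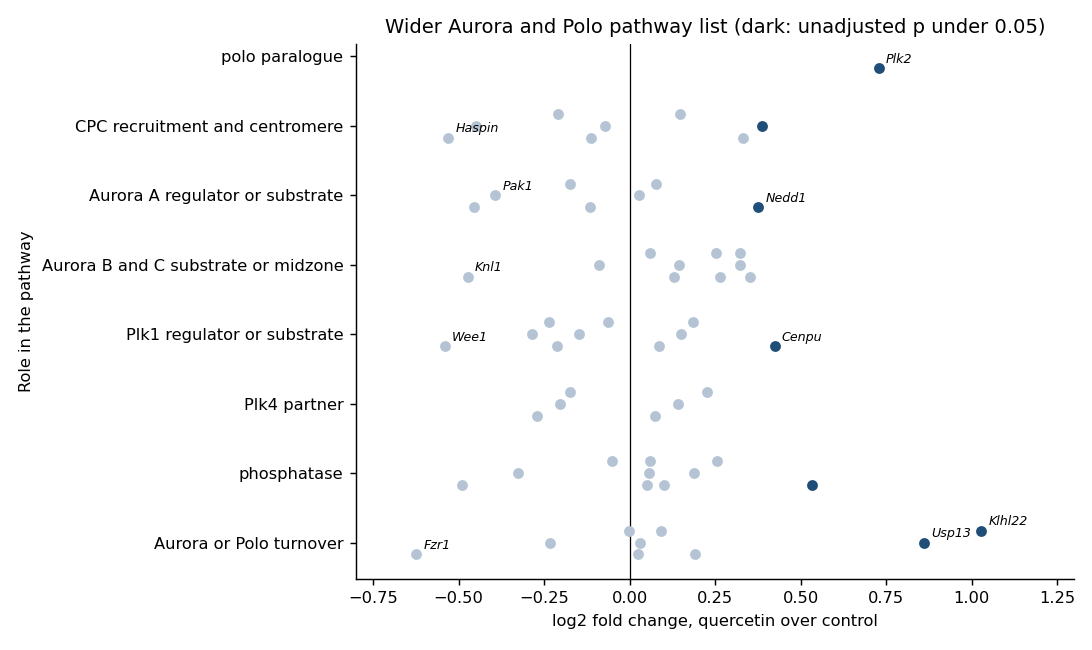
Log2 fold change, quercetin over control, of the 61 tested genes of the wider list, in rows by role, with names for the 5 higher and 5 lower genes of smallest unadjusted p. Dark points are the 7 genes at an unadjusted p under 0.05 by edgeR's quasi-likelihood test, which all lie above 0.

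By role, genes acted on by Aurora B and C and genes of the spindle midzone had 8 of 10 tested fold changes above 0 (median 0.20, range -0.47 to 0.35), with 0 at an unadjusted p under 0.05. In this role the groups did not overlap for *Prc1*, *Kif20a* and *Ndc80*, with quercetin higher. Of the 6 genes for partners of Plk4 in centriole assembly, 3 were above 0 and 3 below (range -0.27 to 0.23), with 0 called. Of 10 phosphatase genes, 7 were above 0 and 1 was called. The 8 genes for recruitment of the passenger complex had 3 above 0 and 5 below, the 7 for regulators or substrates of Aurora A 3 and 4, and the 10 for regulators or substrates of Plk1 4 and 6, with 1 called in each.

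Of the 5 lower genes with the smallest p, none was at an unadjusted p under 0.05, and the groups overlapped in each. *Haspin*, the kinase whose histone mark places the passenger complex at centromeres, had 103, 117 and 155 counts in control and 62, 51 and 140 counts in quercetin pools, which gave a log2 fold change of -0.53 (SE 0.39). *Knl1*, a kinetochore scaffold, had 471, 572 and 518 counts in control and 279, 254 and 567 counts in quercetin pools, which gave a log2 fold change of -0.47 (SE 0.31). *Pak1*, a kinase reported to act on Aurora A, had 123, 167 and 172 counts in control and 78, 82 and 185 counts in quercetin pools, which gave a log2 fold change of -0.39 (SE 0.36).

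In these 3 genes quercetin pools 1 and 2 were below every control pool and quercetin pool 3 was not. Without quercetin pool 3 their log2 fold changes were -1.10, -0.93 and -0.92, with adjusted p of 0.238, 0.198 and 0.247 in edgeR (quasi-likelihood fit, Benjamini-Hochberg adjusted). Without quercetin pool 2 they were -0.24, -0.24 and -0.17. The same order of pools was seen, in genes named after their values had been seen, for *Bub1* (240, 309 and 266 counts in control and 137, 155 and 401 in quercetin pools), *Ttk* (378, 423 and 348 and then 201, 239 and 535) and *Tacc3* (1288, 923 and 855 and then 461, 371 and 1342). In the wider list, *Sgo2b*, *Fbxo5*, *Cdc25b* and *Sass6* had this order too. Quercetin pools 1 and 2 are the pools that stood apart on the main axis of variation over all genes. *Mki67* (751, 742 and 595 counts in control and 406, 336 and 894 in quercetin pools) and *Top2a* (252, 244 and 231 and then 116, 107 and 350) had the same order, whereas *Ccna2* (2703, 2164 and 2871 and then 2360, 2578 and 1862) was lowest in quercetin pool 3. None of the 10 members had quercetin pools 1 and 2 both below every control pool and pool 3 not. The share of all tested genes with this order was not counted, so no contrast between the members and other genes is drawn.

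The other lower genes were *Fzr1*, the APC/C activator that directs Aurora and Polo kinases to degradation, and *Wee1*, an inhibitory kinase of Cdk1. *Fzr1* had 69, 96 and 50 counts in control and 28, 60 and 51 counts in quercetin pools (log2 fold change -0.62, SE 0.35). *Wee1* had 15, 23 and 12 counts in control and 11, 17 and 6 counts in quercetin pools (log2 fold change -0.54, SE 0.48). Without control pool 2, these became -0.31 and -0.20. The oocyte paralogue *Wee2* was far more abundant, at 5953 to 7696 counts. The cohesin gene *Rec8* was at 0 counts in all 6 pools, which allows up to 0.329 to 0.376 CPM by counting error alone. How reads were assigned to genes is not given in the sources used here, so absence of its RNA is not concluded.

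**Figure D5:**
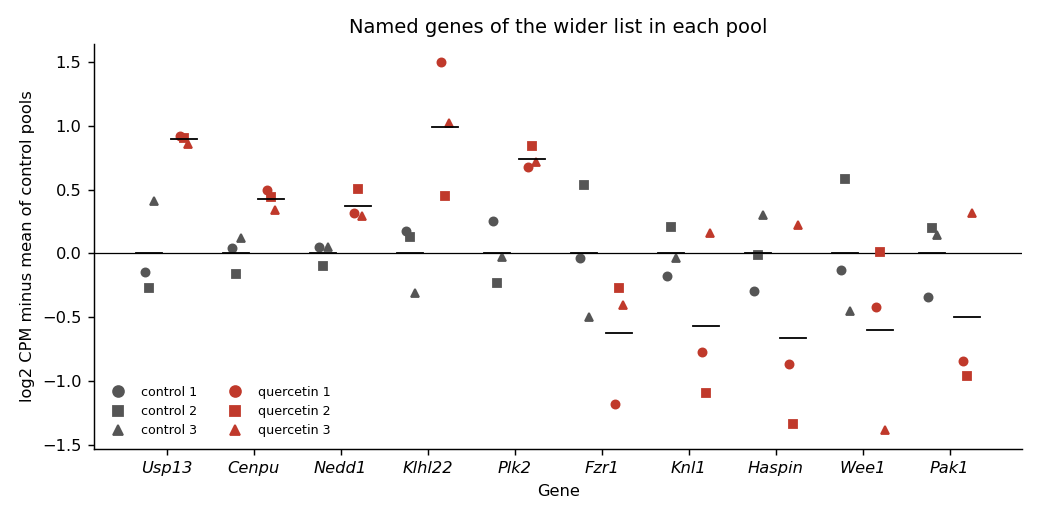
Log2 CPM of the 5 higher and 5 lower named genes of the wider list in each pool, minus the mean of the control pools, with black lines for the mean of 3 pools. The quercetin pools of *Usp13*, *Cenpu*, *Nedd1*, *Klhl22* and *Plk2* all lie above the control pools, whereas in *Knl1*, *Haspin* and *Pak1* quercetin pools 1 and 2 lie below them and pool 3 (0.16 to 0.32) does not.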

How the data were processed

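Libraries of 6 pools of M II oocytes were built with the Smart-seq HT Kit and sequenced on an Illumina NovaSeq instrument, per the study's methods. Alignment by the authors used Hisat2 and GRCm38.91, per the study's methods, and the submitters' processing notes also name TopHat2 (2.0.6) and CASAVA (1.8). They deposited raw read counts for 53465 Ensembl genes, not normalized and not pooled over replicates. The counting program, its use of strand and its treatment of reads that match several genes are not given in the sources used here. 

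Symbols matched 53274 gene IDs. Coordinates and exon lengths came from GENCODE release M21 on the same build. Genes passing filterByExpr (minimum count 10), 11842 of 24476 with a count, were scaled by TMM and tested with edgeR 4.0.16 (glmQLFit and glmQLFTest, R 4.3.3), without covariates, and p-values were adjusted over all of them by the Benjamini-Hochberg method. The standard error is the size of the log2 fold change divided by the square root of F. CPM use TMM-scaled library sizes, 7880467 to 9938743 total counts before scaling. Ratios had 0.5 added to each count and were compared by two-sided exact permutation tests, which cannot go under 0.1 with 3 pools against 3, and p-values measure only the spread between these pools. Sequences were compared in Python with Biopython as shared words of 31 bases and as pairwise alignments. The fit was tested on simulated data.

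Named were the 10 members, the Polo paralogues, the 5 higher and 5 lower tested genes of the wider list with the smallest unadjusted p, and the 5 genes with the highest Pearson r with *Aurkc* among those with a mean of at least 20 CPM. Members and lists were chosen with earlier results of these data known. Settings changed in turn were the tool (DESeq2 1.42.0, limma-voom of limma 3.58.1, or the likelihood ratio test of edgeR), the scaling, the filter, the pseudocount, the pools (each left out) and a block for the replicate number. Added after seeing the data were the coding transcript length and the counts of *Aurkc* with its copies.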

Additional observations from a re-analysis of the deposited data

Results flagged for a closer look

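Reads assigned to *Gm12463*, a processed pseudogene of *Aurkc* that is in no comparison of the study's design, had a median of 2518 counts over the 6 pools, far above the floor of 3 counts. Pools of both groups had it at 1796 counts or more, and its part in the level of *Aurkc* was not tested.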

How the results depend on the processing

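The number of members meeting both criteria was 0 under every alternative. At an unadjusted p under 0.05 the number of members was 1, *Tpx2*, and 0 with the likelihood ratio test and with the replicate block, and 0 to 1 with a pool left out. Of all genes, 12 met both criteria with DESeq2, 16 with the likelihood ratio test, 3 among all genes with at least 1 count, and 0 to 7 with a pool left out, the highest without quercetin pool 1. The wider list had 2 to 19 genes at an unadjusted p under 0.05 with a pool left out, and without quercetin pool 3 all genes had 567 higher and 996 lower calls. The log2 fold change turned sign for *Aurkc* (-0.0207) and *Plk1* (-0.0584) by library size only and for *Birc5* with DESeq2 (0.000836) or its size factors (0.000774). With a pool left out it ran from -0.00668 to 0.184 for *Aurkc*, -0.137 to 0.0777 for *Birc5*, -0.116 to 0.128 for *Plk1*, and -0.0315 to 0.380 for the ratio of *Bora* to *Plk1*. The log2 difference of the *Aurkc* to *Aurkb* ratio ran from -0.62 to -0.02 in the same way. The cause of these changes was not tested. The other 129 alternative log2 fold changes of members, and all 139 of the named genes of the wider list, kept their direction, and none met both criteria. With a pool left out that of *Incenp* ran from -0.294 to -0.0042 and that of *Aurkb* from 0.0847 to 0.626. *Tpx2* had log2 fold changes of 0.26 to 0.42 and adjusted p of 0.244 to 1 over its edgeR, DESeq2 and limma alternatives.

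By library size only, the median log2 fold change of all genes was -0.11, with 145 higher and 362 lower calls at an unadjusted p under 0.05 (253 and 224 with TMM). The members then had 5 above 0 and 5 below (median 0.04), and 8 and 2 (median 0.14) with DESeq2's size factors. The replicate number was shared in the labels, but same-numbered pools did not all deviate together (correlations 0.30, 0.10 and -0.03), so the replicate block, with 6 genes of the wider list at an unadjusted p under 0.05, is not read as a pairing. Of the 10 members, depth limits *Aurkb* most, at 46 to 98 counts.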
